A study of Mus musculus with 8 samples.

Results

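The genes described here encode the proteins of the cytosolic ribosome. They were chosen by name: every non-control probe whose gene name in the array files is Rpl, Rps, Rplp or Rpsa with its number, without the ribosomal S6 kinases and without names marked as pseudogenes. That gave 82 of the 36163 gene names on the array, measured by 182 probes of 60 bases. Of these genes 81 could be tested, 31 of the small subunit and 50 of the large subunit, and 80 of them were well above background on all 8 arrays. Rpl10l, a retrogene best known from testis, was not well above background on any array. Rpl39l, also best known from testis, was well above background on 3 arrays. Fau, made as a fusion with a ubiquitin-like protein, carries another name and is not among the 82, while the ubiquitin fusion gene Rps27a is.

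RNA was measured in sorted bone marrow cells of mice aged 6 weeks, on a mixed strain background (B6/CBA and others), with 2 arrays for each of 4 groups. The KSL fraction is c-Kit positive, Sca-1 positive and lineage negative and is enriched for blood stem and progenitor cells. The Gr fraction is positive for Gr-1 and Mac-1 and holds mainly granulocytes and their late precursors. Both came from Vav-Etv2 mice and from control mice. Vav-Etv2 mice carry a transgene for Etv2, an ETS transcription factor of early blood and vessel precursors, and a second transgene, Vav-iCre, a Cre recombinase under the blood-cell promoter Vav that turns the first one on. The labels give the genotype of the other mice only as control, so it is not known from them whether these carried either transgene. Nor do the labels tie an array to 1 mouse or to several, so every p-value measures only the spread between these samples. RNA was labelled with Cy3 by a low-input amplification kit, and the cells were not treated after sorting.

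Each ribosome holds 1 copy of nearly every ribosomal protein, so the genes are expressed at high levels and tend to move together. Their messages start with a run of pyrimidines, the terminal oligopyrimidine (TOP) motif, through which mTOR and LARP1 control their translation. Haploinsufficiency of several of them, RPS19 first among these in humans, causes Diamond-Blackfan anaemia, a failure of red cell production, and loss of RPS14 contributes to the anaemia of the 5q- syndrome. Blood stem cells are known for a low rate of protein synthesis that rises as they become progenitors, and maturing granulocytes take their ribosome production down.

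The transgene and the sort were checked first. Levels are log2 values relative to the 75th percentile of each array's probes. The Etv2 probe with the higher mean read 0.19 and -1.24 in KSL Vav-Etv2 cells, against -4.37 and -4.73 in KSL control cells, where it was not well above background. It read -0.55 and -1.29 in Gr Vav-Etv2 cells, against -4.48 in Gr control 1. The array labelled Gr control 2 read -0.54, a level well above background, unlike Gr control 1. That array does not match its label in this respect. The member count and median, the gene lists and some named genes of the control comparison are also given without it. Values by subunit, by overlap of the arrays and by promoter are given only with it. Of 10 KSL marker genes 9 were called higher in KSL control than in Gr control cells. The exception, Ly6a, which encodes Sca-1, read 3.65 and 3.59 in KSL control cells against 6.18 and 4.48 in Gr control cells. In Vav-Etv2 mice 7 of the 10 were called higher in KSL than in Gr cells and 1 lower, against 10.4% and 13.8% of all features. Of 11 Gr marker genes all 11 had a lower mean in KSL control cells, 4 of them called. All 5 monocyte genes also had a lower mean there, with a median difference of -2.40, or -1.52 without the array labelled Gr control 2. The Gr arrays numbered 1 and the KSL arrays had Xist well above background, while both Gr arrays numbered 2 had Ddx3y, of the Y chromosome, in its place. The 75th percentile signal was between 136 and 301 and 47.7% to 55.5% of probes were well above background, and the number of arrays limits the precision. All 8 arrays lay on 1 slide, with KSL samples in slide row 1 and Gr samples in slide row 2, so that slide row and cell population cannot be told apart. In bulk samples a smaller number of cells of a type and less RNA per cell cannot be told apart either.

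Ribosomal protein messages were more abundant, relative to the rest of the RNA, in KSL than in Gr cells. The median level of the 81 genes was 8.52 and 8.69 in KSL Vav-Etv2 cells, 8.87 and 8.74 in KSL control cells, 7.33 and 7.76 in Gr Vav-Etv2 cells and 7.16 and 7.69 in Gr control cells. All 4 KSL arrays lay above all 4 Gr arrays. The probes of the 82 genes together gave 12.4% and 12.7% of the summed signal in KSL Vav-Etv2 cells, 13.3% and 12.9% in KSL control cells, 5.24% and 7.79% in Gr Vav-Etv2 cells and 4.47% and 7.44% in Gr control cells. Within both Gr groups the array numbered 1 was the lower one.

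**Figure D1:**
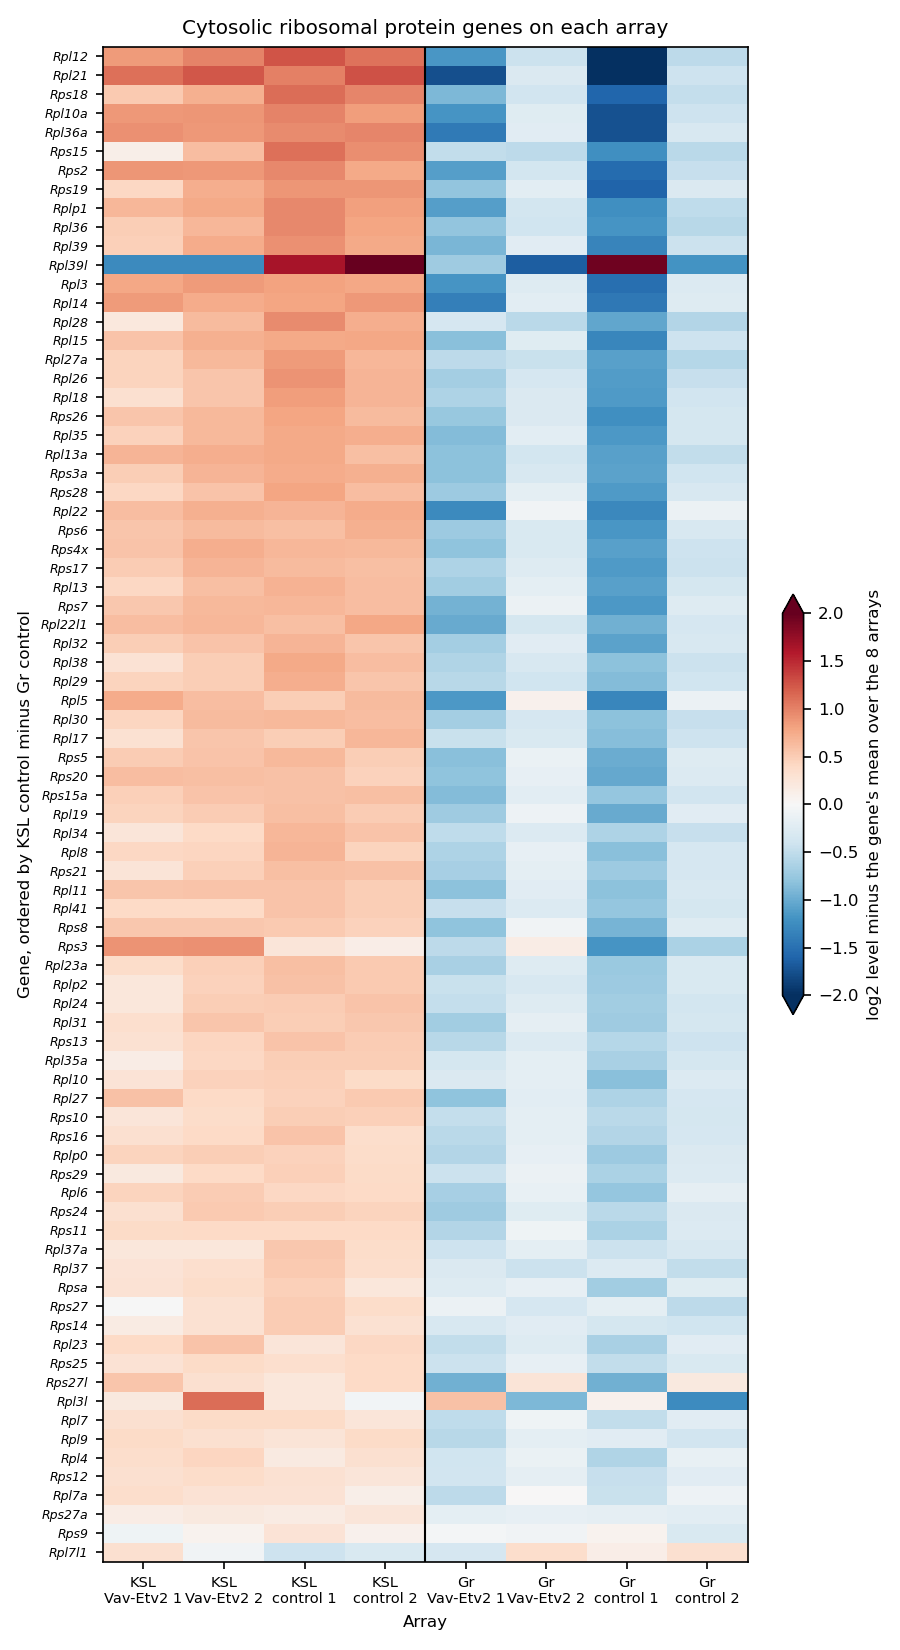
Level of 80 of the 81 tested genes (rows, ordered from the largest to the smallest KSL control minus Gr control difference) on each of the 8 arrays (columns), as the log2 level minus the gene's own mean over the 8 arrays. Colours end at -2 and 2. Nearly all rows are red on the 4 KSL arrays and blue on the 4 Gr arrays, with Rpl7l1, Rpl39l and Rpl3l among the exceptions, and the Gr arrays numbered 1 are the bluest.

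In control mice 54 of the 81 genes were called higher in KSL than in Gr cells and 0 lower, at a limma adjusted p under 0.05 over 23249 features. Over all features 16.2% were called higher and 18.5% lower. The median log2 difference of the 81 genes was 1.17, or 2.25-fold, against -0.13 over all features. The 2 KSL control arrays lay above the 2 Gr control arrays for 78 of the 81 genes, against 34.8% of all features. By subunit, 19 of 31 small subunit genes and 35 of 50 large subunit genes were called, with median differences of 1.09 and 1.27. Leaving out either KSL control array, which leaves that arm with 1 sample, ended all calls (0 of 81, against 5.17% and 5.01% of all features higher), while the median stayed at 1.13 and 1.21. With each probe by itself 22 of 179 were called higher in Vav-Etv2 mice, against 10.5% of all probes, and 109 of 179 in control mice, against 15.7%. Without Gr control 1 the count was 7, near the 9.06% of all features called higher there, and the median 0.94. Without the array labelled Gr control 2 they were 60, against 20.1%, and 1.43, and without either KSL Vav-Etv2 array the count was 29, against 13.5%. Scaling to the median in place of the 75th percentile gave 14 calls, against 12%, and quantile normalization 24, against 17.5%.

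The largest differences in controls belonged to genes from several regions of the ribosome. Without the array labelled Gr control 2 those of Rpl12, Rps18, Rps15, Rpl21, Rpl10a and Rpl36a, all given here with it, lay between 2.25 and 3.28 and were called. Rpl12, a protein at the base of the stalk that recruits elongation factors, stood at 9.29 and 9.12 in KSL control cells, against 5.96 and 7.51 in Gr control cells. The groups did not overlap, and the difference was 2.47 (SE 0.53, 5.54-fold, adjusted p = 0.0153 by limma). Rps18, a small subunit protein of the head, stood at 7.94 and 7.79 in KSL control cells, against 5.24 and 6.34 in Gr control cells (difference 2.07, SE 0.42, adjusted p = 0.0127 by limma). Rps15, another protein of the head that enters late in assembly, stood at 8.51 and 8.34 in KSL control cells, against 6.18 and 6.87 in Gr control cells. Its difference of 1.90 (SE 0.35) had the lowest limma adjusted p of the 81 genes, 0.0091. Rpl21, a large subunit protein, was measured at a low signal by its probes, 0.19 and 0.45 in KSL control cells against -2.96 and -1.24 in Gr control cells (difference 2.42, SE 0.67). Rpl10a, of the L1 stalk from which spent tRNA leaves, differed by 1.99 (SE 0.51), and Rpl36a, another large subunit protein, by 1.99 (SE 0.56). The smallest differences that were still called were 0.93 for both Rps10 (SE 0.27) and Rps16 (SE 0.29), both small subunit proteins, and Rps16 was not called without the array labelled Gr control 2 (adjusted p = 0.0502 by limma).

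A few genes stood apart from that pattern. Rps9, a small subunit protein bound early in assembly, read 9.03 and 8.83 in KSL control cells against 8.81 and 8.44 in Gr control cells, a difference of 0.31 (SE 0.28). Rps27a, made as a fusion with ubiquitin, read 9.19 and 9.27 in KSL control cells against 8.85 and 8.81 in Gr control cells, a difference of 0.40 (SE 0.25). Rpl7a, a large subunit protein, differed by 0.48 (SE 0.31). These 3 were not called, at adjusted p between 0.254 and 0.420 by limma. Rpl7l1, a nucleolar relative of Rpl7, was the single member with a lower mean in KSL control cells, -0.71 and -0.61 against -0.18 and 0.01 in Gr control cells (difference -0.58, SE 0.34, adjusted p = 0.217 by limma). Fau gave 0.13 and was not called.

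In Vav-Etv2 mice the same comparison gave a median log2 difference of 0.89, or 1.86-fold, against -0.10 over all features. Of the 81 genes 8 were called higher in KSL than in Gr cells and 0 lower, against 10.4% and 13.8% of all features, so the called share of 8 in 81 was near the background. That did not hold with the replicate number as a block, which gave 24 calls, against 13.4% of all features higher. Nor did it with a block within each cell type, which gave 58, against 23.5%. The labels do not tie equal numbers to a shared animal or batch. Same-numbered KSL arrays deviated together with r = 0.068 over all features and -0.276 over the members. Without a block 59 genes had an unadjusted p under 0.05, against 19.3% of all features higher. Both KSL Vav-Etv2 arrays lay above both Gr Vav-Etv2 arrays for 77 of the 81 genes, against 32.2% of all features. The called genes were Rps2, a small subunit protein at the entry of the mRNA channel, Rplp1, of the stalk itself, Rpl13a, which also silences messages in the interferon response, Rps4x, encoded on the X chromosome, Rpl36, Rpl27a and Rpl30 of the large subunit, and Rpl22l1, a paralog of Rpl22. Rps2 read 8.58 and 8.55 in KSL Vav-Etv2 cells, against 6.59 and 7.32 in Gr Vav-Etv2 cells (difference 1.61, SE 0.44, adjusted p = 0.0391 by limma). Rplp1 read 8.51 and 8.61 in KSL Vav-Etv2 cells, against 6.75 and 7.48 in Gr Vav-Etv2 cells (difference 1.44, SE 0.38, adjusted p = 0.0358 by limma). All 8 of these genes were also called in controls, where 54 of the 81 were. The 2 comparisons use the same estimate of each gene's spread, so these calls are not independent. The count was 0 without any single KSL array or without Gr Vav-Etv2 1, where 4.76% to 6.7% of all features were called higher. It was 11 without Gr Vav-Etv2 2, against 9.92%, and 31 without either Gr control array, against 15%. It was 0 with scaling to the median, against 8.34%, and 3 with quantile normalization, against 12.1%. Leaving out both Gr arrays numbered 2 gave 65 calls in Vav-Etv2 mice, against 24%, and 71 in control mice, against 26%. Leaving out both numbered 1 gave 15, against 12.6%, and 45, against 15.5%.

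**Figure D2:**
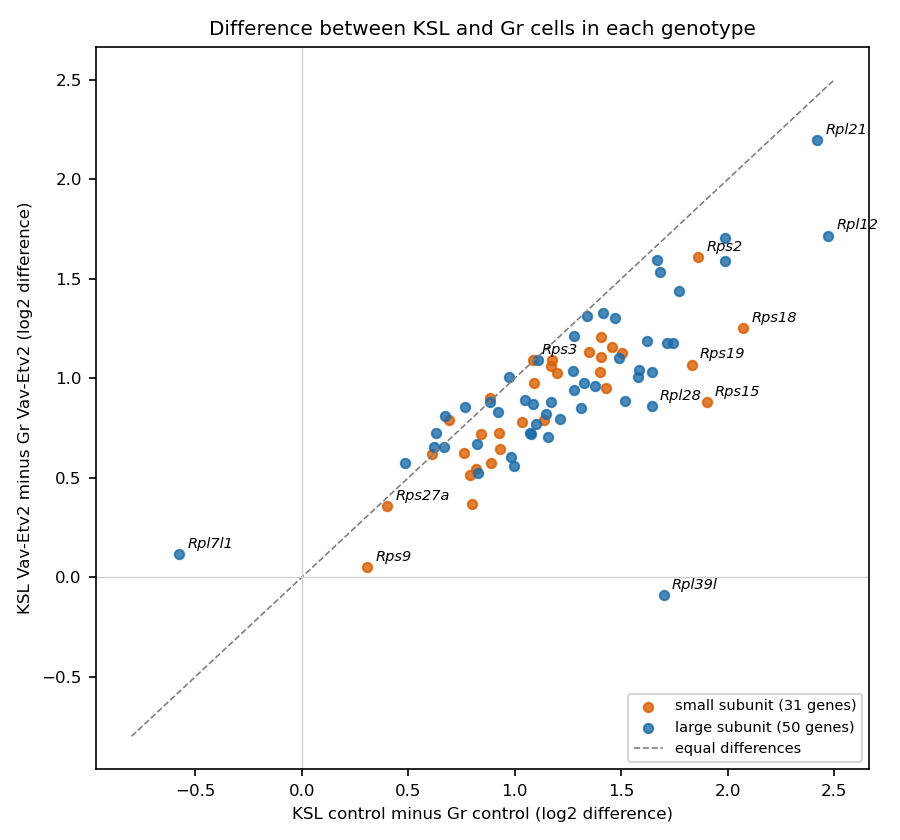
KSL minus Gr log2 difference of each of the 81 genes in Vav-Etv2 mice (vertical axis) against the same difference in control mice (horizontal axis), small subunit genes in orange and large subunit genes in blue. The dashed line marks equal differences. Most genes lie in the upper right below the dashed line, with medians of 0.89 in Vav-Etv2 and 1.17 in control mice, and Rpl7l1 and Rpl39l lie away from the rest.

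Genes with a large difference in one genotype had a large one in the other. Across the 76 genes other than the paralogs Rpl3l, Rpl7l1, Rpl22l1, Rpl39l and Rps27l, the KSL minus Gr difference in Vav-Etv2 and that in control mice correlated with Pearson's r = 0.86, against 0.89 over all features. The r of the 76 genes was 0.90 without the array labelled Gr control 2. Genes are not independent replicates, and the 2 differences share no array but share the probes and the slide rows.

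The calls in controls covered the genes with known roles in blood disease in part. Rps19 read 7.68 and 7.69 in KSL control cells against 5.20 and 6.51 in Gr control cells (difference 1.83, SE 0.47, adjusted p = 0.0265 by limma). Rps26, another Diamond-Blackfan anaemia gene in humans, was called with a difference of 1.50 (SE 0.37), and so was Rpl35a, with 1.00 (SE 0.28). Rpl11 and Rpl5 belong to the particle that brings 5S RNA to the ribosome and that binds Mdm2 to stabilise p53. Rpl11 was called with a difference of 1.11 (SE 0.33), while Rpl5 gave 1.28 (SE 0.53, adjusted p = 0.103 by limma). Rps14 gave 0.79 (SE 0.26) and was not called, at an adjusted p of 0.0572 by limma. Rps27l, a p53 target and paralog of Rps27, gave 0.69 (SE 0.53) and was not called. Of the 8 genes with blood disease or p53 roles, Rps24 being the eighth, 0 were called in Vav-Etv2 mice, where 10.4% of all features were called higher, with 3 at an unadjusted p under 0.05, against 19.3%, and a median difference of 0.98. In control mice 4 of the 8 were called, against 16.2% of all features, with a median of 1.05. With the array labelled Gr control 2 left out these were 5 and 1.32, with Rpl5 added, and Rps19 gave 2.49.

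The paralogs with restricted expression are given beside their partners. Rpl22 and Rpl22l1 encode proteins that oppose each other in blood development. Rpl22l1 was called in both genotypes, with differences of 1.31 (SE 0.36) in Vav-Etv2 and 1.34 (SE 0.36) in control mice. Rpl22 gave 1.41 (SE 0.53) in controls and was not called through the probe that stood for it. Its other probe read 4.29 and 4.45 in KSL control cells against 0.33 and 1.65 in Gr control cells, a difference of 3.38 (adjusted p = 0.0075 by limma over all probes). Of the other partners, Rpl3 (1.68), Rpl10 (0.98) and Rpl39 (1.72) were called in controls, and Rpl7 (0.67) and Rps27 (0.80) were not. Rpl3l, a muscle form of Rpl3, and Rpl39l stood near the lower end of the measurable signal. Rpl39l read -6.34 on both KSL Vav-Etv2 arrays, not well above background, against -3.42 and -2.57 on the KSL control arrays, both well above background. It read -5.78 and -6.71 in Gr Vav-Etv2 cells, against -3.12 in Gr control 1, the single Gr array well above background, and -6.27 in the array labelled Gr control 2. The KSL Vav-Etv2 mean was thus at least 2.57-fold lower than the KSL control mean, with an adjusted p of 0.433 by limma.

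The Rps24 gene gave the largest difference of any ribosomal protein probe. Rps24 messages are known to be spliced in several ways near their 3′ end, which changes the last residues of the protein. Of 4 Rps24 probes, 1 is listed in the files for a single RefSeq transcript, NM_011297, and 2 for all 3 RefSeq transcripts, while the fourth is listed for none. On build mm9 the single-transcript probe spans chr14:25312695-25315015 on the plus strand and the shared probe shown here chr14:25311190-25312666. Both spans are longer than the 60 bases of a probe. Their sequences are shown because they read different parts of the message, the first as bases 1 to 50 and the second whole, all in lower case since no letter is singled out.
Rps24 NM_011297 probe: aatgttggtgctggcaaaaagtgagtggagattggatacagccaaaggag
Rps24 NM_207634 shared probe: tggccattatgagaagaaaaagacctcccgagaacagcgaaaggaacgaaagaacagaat

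The NM_011297 probe read 6.87 and 8.09 in KSL Vav-Etv2 cells, 8.97 and 8.95 in KSL control cells, 1.37 and 2.95 in Gr Vav-Etv2 cells and 1.73 and 2.80 in Gr control cells. It was well above background on all 8 arrays, and all KSL values lay far above all Gr values. In Vav-Etv2 mice the KSL minus Gr difference was 5.33 (SE 0.66, 40.1-fold, adjusted p = 0.00391 by limma over 32352 probes). In control mice it was 6.70 (SE 0.66, 104-fold, adjusted p = 0.00168 by limma). The shared probe read 7.02 and 7.31 in KSL Vav-Etv2 cells, 7.32 and 7.31 in KSL control cells, 5.92 and 6.49 in Gr Vav-Etv2 cells and 5.78 and 6.41 in Gr control cells. Its difference was 0.96 in Vav-Etv2 and 1.21 in control mice. The remaining probes, which lie downstream of both, gave differences of 0.73 and 0.90 in Vav-Etv2 and of 0.77 and 0.88 in control mice. The NM_011297 difference was called in all 20 alternatives run in each genotype, at values from 4.54 to 6.11 in Vav-Etv2 and from 6.16 to 7.23 in control mice. Whether the probe's difference differs from that of the other probes was not tested.

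Within KSL cells the NM_011297 probe gave -1.48 for Vav-Etv2 minus control (SE 0.66, unadjusted p = 0.062 and adjusted p = 0.741 by limma), with both Vav-Etv2 arrays below both controls. The other 3 probes gave -0.15, -0.04 and 0.01. In Gr cells it gave -0.11 (SE 0.66).

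**Figure D3:**
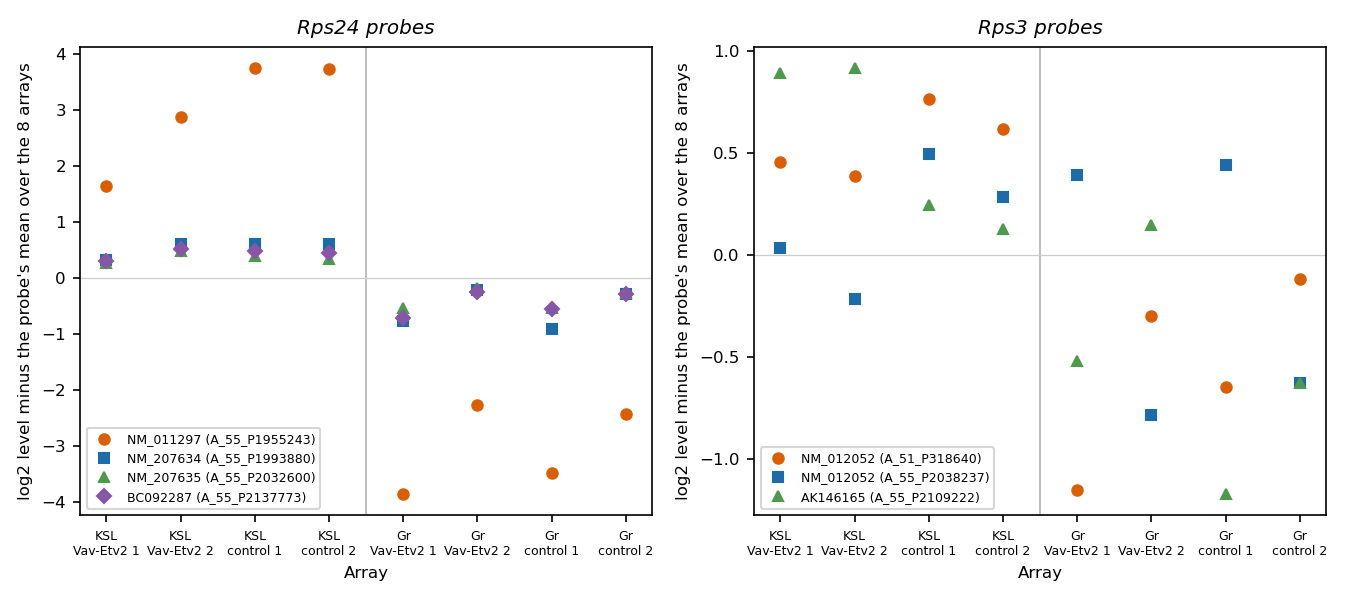
Level of each Rps24 probe (left) and each Rps3 probe (right) on each of the 8 arrays, as the log2 level minus the probe's own mean over the 8 arrays. Each marker is 1 array and each colour 1 probe, named by its transcript and probe identifier. The NM_011297 probe of Rps24 separates KSL from Gr cells by 5.33 in Vav-Etv2 and 6.70 in control mice, far more than the other Rps24 probes, and the AK146165 probe of Rps3 is higher on Vav-Etv2 than on control arrays where the other Rps3 probes are lower on average.

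In KSL cells 0 of the 81 genes were called higher and 0 lower in Vav-Etv2 than in control, against 0.0043% and 0.0129% of all features, and 1, Rpl39l, was lower at an unadjusted p under 0.05, against 3.2% of all features higher and 4.21% lower. The median log2 difference was -0.095, against 0.0033 over all features. Of the 81 genes 60 had a lower mean in Vav-Etv2 cells, where 49.6% of all features did. Both KSL Vav-Etv2 arrays lay below both KSL control arrays for 37 genes, against 25.4% of all features, and above them for 7, against 26.2%. Arrays numbered 1 gave a median of -0.18 and arrays numbered 2 one of -0.020.

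Among genes well above background on all arrays, Rps15, Rps18 and Rpl28 had the lowest values in KSL cells, while Rpl39l, near the lower end of the signal, gave -3.34 (SE 0.95). Rps15 read 7.52 and 8.03 in KSL Vav-Etv2 cells against 8.51 and 8.34 in KSL control cells (difference -0.65, SE 0.35, adjusted p = 0.838 by limma). Its second probe gave -0.58. Rps18 gave -0.43 (SE 0.42) and Rpl28, a large subunit protein, -0.41 (SE 0.31). None of these was called.

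Proliferation genes and markers of other cells moved with the KSL comparison, with 0 called. All 12 proliferation genes had a higher mean in KSL Vav-Etv2 cells (median 0.27). So did all 5 monocyte genes (0.64) and 6 of 7 endothelial genes (2.40). All 6 T and NK genes (-1.27) and 6 of 7 erythroid genes (-0.80) had a lower one. The summed level of 7 B lineage genes was 6.09 and 6.57 in KSL Vav-Etv2 cells against 4.48 and 4.49 in KSL control cells, and all 7 had higher values on both Vav-Etv2 arrays. The summed level of the 10 KSL markers was 8.03 and 8.13 in KSL Vav-Etv2 cells against 8.41 and 8.52 in KSL control cells. The summed Gr markers stood at 7.95 in KSL Vav-Etv2 1, against 10.73 in KSL Vav-Etv2 2 and 10.72 and 10.63 in KSL control cells. The median of the ribosomal protein genes was -0.053 with KSL Vav-Etv2 1 left out, and -0.15 with the other KSL Vav-Etv2 array left out. The part of these shifts in the ribosomal protein values was not tested.

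In Gr cells 0 of the 81 genes were called in either direction, against 0.0043% of all features in each, and 0 had an unadjusted p under 0.05, against 0.602% of all features higher and 0.675% lower. The median log2 difference of Vav-Etv2 minus control was 0.17, against -0.0099 over all features. A higher mean in Vav-Etv2 cells was seen for 75 of the 81 genes, against 48.5% of all features, but only 5 (Rps3, Rps14, Rps15, Rpl27a and Rpl28) had both Vav-Etv2 arrays above both controls, against 5.83%. The highest were Rps3 at 0.71 (SE 0.35), Rpl12 at 0.50 (SE 0.53), Rps19 at 0.44 (SE 0.47) and Rpl3l at 0.43 (SE 0.65). The 6 genes with a lower mean were Rpl7l1, Rpl9, Rps24, Rpl27, Rpl22l1 and Rpl39l. Arrays numbered 1 gave a median of 0.21 and arrays numbered 2 one of 0.12. Without the array labelled Gr control 2 the median was 0.48, and without Gr control 1 it was -0.095. Markers of several cell types moved with the Gr comparison, with 0 called. All 7 B lineage genes (median 0.73) and all 5 monocyte genes (0.91) had a higher mean in Vav-Etv2 cells. All 6 T and NK genes (-1.17), all 6 mast and basophil genes (-1.17) and all 4 early myeloid genes (-0.28) had a lower one. These medians became 0.30, 1.79, -1.67, 0.61 and 1.28, in that order, without the array labelled Gr control 2. The mast and basophil median and the early myeloid median thus changed sign. The part of these markers in the ribosomal protein values was not tested.

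**Figure D4:**
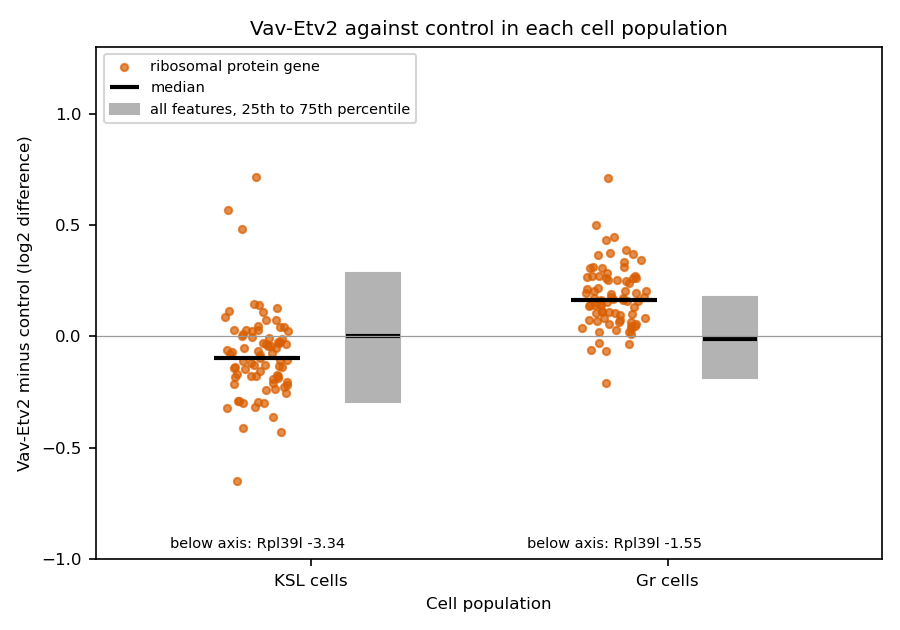
Vav-Etv2 minus control log2 difference of each ribosomal protein gene (orange points, spread sideways for visibility) in KSL and in Gr cells, with their median (black bar), beside the 25th to 75th percentile and the median of all features (grey). Rpl39l lies below the axis, as written there. The medians are -0.095 in KSL and 0.17 in Gr cells, against 0.0033 and -0.0099 over all features.

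Within each Gr group the 2 arrays lay further apart than the genotypes did on average. Array 2 read higher than array 1 for 74 of 81 genes in Gr Vav-Etv2 cells (median 0.45) and for 73 of 81 in Gr control cells (median 0.51), where the medians over all features were -0.098 and -0.15. The summed early myeloid genes moved the same way, 6.92 and 9.27 on arrays 1 and 2 of Gr Vav-Etv2 cells and 7.29 and 9.89 in Gr control cells. Between the genotypes, with all 8 arrays, these genes went the other way from most ribosomal protein genes (median -0.28). Proliferation genes summed to 8.17 and 9.26 in Gr Vav-Etv2 cells and to 8.20 and 9.22 in Gr control cells. Xist and Ddx3y split the same pairs. The part of any of these in the ribosomal protein levels was not tested.

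The difference of the transgene effects, KSL minus Gr, had a median of -0.28 over the 81 genes, against -0.00026 over all features. It was negative for 70 of 81 genes, against 50% of all features, and was called for 0 of them, against 0% of all features higher and 0.0043% lower, with 0 at an unadjusted p under 0.05, against 1.48% higher and 2.4% lower. The largest sizes were Rps15 at -1.02 (SE 0.49), Rps18 at -0.82 (SE 0.60) and Rpl28 at -0.78 (SE 0.44) among the genes well above background on all arrays. Without Gr control 1 the median was 0.0053, and -0.53 with the array labelled Gr control 2 left out.

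Rps3, a small subunit protein at the mRNA entry with a further role in DNA repair, was the highest of the members in Vav-Etv2 against control in both cell populations, but its probes disagreed. The AK146165 probe, which stood for the gene, read 8.47 and 8.49 in KSL Vav-Etv2 cells against 7.82 and 7.70 in KSL control cells (difference 0.72, SE 0.35, adjusted p = 0.785 by limma). It read 7.05 and 7.72 in Gr Vav-Etv2 cells against 6.40 and 6.95 in Gr control cells. A second probe read 7.27 and 7.20 in KSL Vav-Etv2 cells against 7.58 and 7.44 in KSL control cells, a difference of -0.27, and gave -0.34 in Gr cells. The remaining probe gave -0.48 in KSL and -0.10 in Gr cells. The first of these probes lies at chr7:106627408-106627786 on the minus strand of mm9, and the second carries no position in the files. Stretches of 24 and 25 bases of both are shown because they open with the same run of 8 bases and differ at 2 stretches, and capitals mark the letters in which they differ.
Rps3 AK146165 probe: gtcttggcagctgcatctAgaggc
Rps3 NM_012052 probe: gtcttggcGagctgcatctGgaggc

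Probes of other genes also disagreed in sign by over 0.5 log2 within KSL cells. In Rpl15, Rpl26 and Rps27a the probe that stood for the gene gave the negative value: -0.12 against 0.56 for Rpl15, -0.29 against 0.32 for Rpl26 and -0.03 against 0.55 for Rps27a. None of these probe differences was called, and the second of these Rps27a probes read near the lower end of the measurable signal. In addition, 12 of the 177 probes with a chromosome in both sources were placed by the files on another chromosome than the gene, among them all those of Rps27 and Rps29, so the files do not settle which copy these probes read.

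Other genes of ribosome production are given for comparison, to be read against the 10.4% of all features called higher in Vav-Etv2 and 16.2% in control mice. Of 30 ribosome biogenesis genes 8 were called higher in KSL than in Gr cells in Vav-Etv2 mice (median 2.06) and 10 in control mice (median 1.77), and 0 lower. Npm1, a nucleolar chaperone, read 7.69 and 7.83 in KSL control cells against 4.18 and 5.82 in Gr control cells (difference 2.76, SE 0.53). Of 16 translation factors with TOP messages 3 and 7 were called higher, with medians of 0.88 in Vav-Etv2 and 1.01 in control mice, among them Eef1g, part of the elongation factor complex that recharges Eef1a, with 2.25 and 2.00. Of 75 mitochondrial ribosomal proteins 1 and 4 were called higher and 1 and 1 lower, with medians of 0.56 in Vav-Etv2 and 0.54 in control mice. With all 8 arrays both shares of the mitochondrial list lay below those of all features. In controls this did not hold once the array labelled Gr control 2 was left out. Without the array labelled Gr control 2 the control counts were 23 of 30, 9 of 16 and 21 of 75, with medians of 2.80, 1.38 and 0.93, against 20.1% of all features. Mrps6 was called higher in both genotypes, and Mrpl33 was the called lower one, at -1.77 in Vav-Etv2 and -1.83 in control mice.

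Upstream genes differed among themselves. Of all features 10.4% were called higher and 13.8% lower in Vav-Etv2 mice, and 16.2% and 18.5% in control mice. Of 12 genes of RNA polymerase I and its factors 2 were called higher in each genotype, Polr1b and Polr1c, near the shares called higher. Ubtf was called lower in controls, at 6.79 and 7.37 in KSL control against 8.13 and 8.03 in Gr control cells. That call was not kept without the array labelled Gr control 2. Of 14 TOP and mTOR regulators 2 were called higher in each genotype, again near those shares, and 1 lower in Vav-Etv2 mice. Their medians were 0.34 in Vav-Etv2 and 0.071 in control mice. In the Myc network 4 of 9 genes were called higher and 3 lower in both genotypes. Myc read 4.10 and 4.03 in KSL control cells against -1.68 and 0.95 in Gr control cells (difference 4.44, SE 0.87), and Mxd1, a Myc antagonist, read 2.24 and 2.35 in KSL control cells against 7.84 and 6.35 in Gr control cells (difference -4.80, SE 0.68). Among 14 names marked as ribosomal protein pseudogenes 0 were called in Vav-Etv2 mice (12 at an unadjusted p under 0.05) and 12 in control mice, with medians of 0.94 and 1.27. Whether their probes also read the parent genes was not tested. Without the array labelled Gr control 2 the control medians were 1.11 for RNA polymerase I, 0.32 for the regulators and 1.57 for the pseudogene names. The Myc network median was then -0.20, as was that of all features. Within KSL and within Gr cells 0 genes of any of these lists were called for Vav-Etv2 against control.

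**Figure D5:**
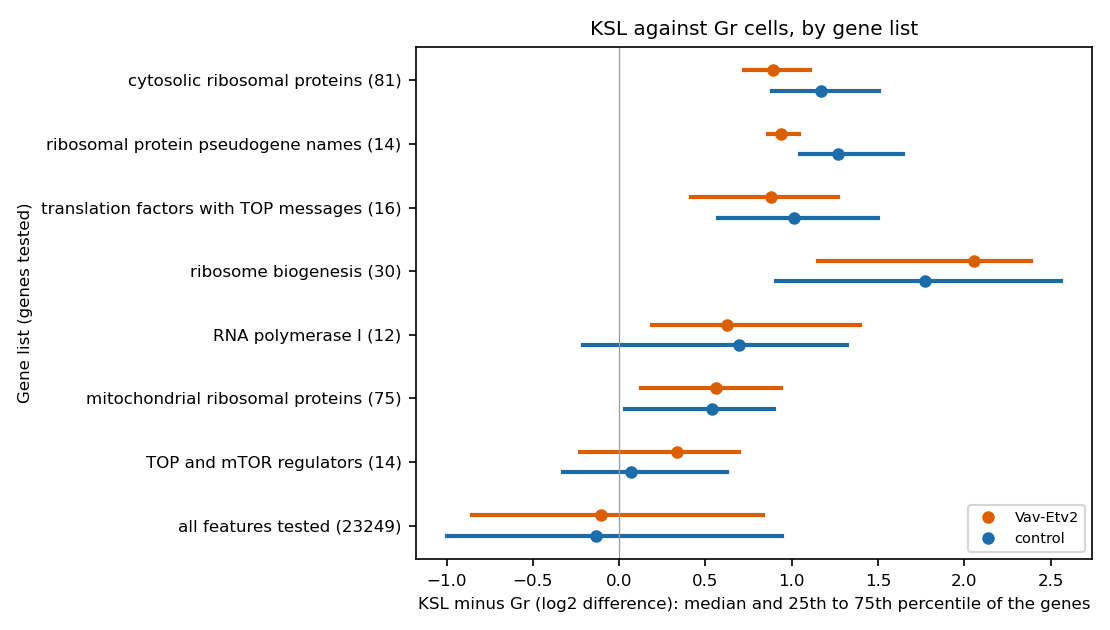
KSL minus Gr log2 difference by gene list, as the median (dot) and the 25th to 75th percentile (line) over the genes of each list, in Vav-Etv2 (orange) and in control mice (blue), with the number of genes tested in brackets. The medians of the cytosolic ribosomal proteins are 0.89 and 1.17, those of ribosome biogenesis 2.06 and 1.77, and those of all features -0.10 and -0.13.

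Promoter windows of RefSeq, from 250 bases before to 50 bases after the start on build GRCm38.p6, were at hand for 61 of the 82 genes by symbol. A pyrimidine run (CTTTC, its longer form CTTTTC, or the variant CTTCC) began within 10 bases of the start on the coding strand in 37.7% of these genes, against 10.6% of 27025 genes in the table. CCGGAAG, the core that ETS factors bind, was found on either strand in 41.0% of them against 9.93% of all genes, and AAGATGG, the core of YY1, in 16.4% against 7.28%. A match is a description of the letters only. The median KSL control minus Gr control difference was 1.35 for the 23 tested genes with the pyrimidine run and 1.07 for the 37 without it. It was 1.17 for the 25 tested genes with the ETS core and 1.07 for the 35 without it. It was 1.08 for the 10 with the YY1 core and 1.15 for the 50 without it. The windows below run from 40 bases before to 20 bases after the start. Capitals mark a pyrimidine run that begins within 10 bases of the start, not always at it. The windows are shown for the members with the largest differences in controls that hold such a run. They lie at chr2:32961672-32961731 (plus strand), chr17:33955646-33955705 (minus strand), chrX:134585614-134585673 (plus strand) and chr7:4792925-4792984 (plus strand).
Rpl12 start: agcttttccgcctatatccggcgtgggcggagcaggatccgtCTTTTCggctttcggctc
Rps18 start: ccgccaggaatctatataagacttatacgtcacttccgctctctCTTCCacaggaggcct
Rpl36a start: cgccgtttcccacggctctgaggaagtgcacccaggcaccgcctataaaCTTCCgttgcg
Rpl28 start: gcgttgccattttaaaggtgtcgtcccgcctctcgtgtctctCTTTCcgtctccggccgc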

How the data were processed

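RNA of sorted KSL and Gr bone marrow cells was hybridised to 8 one-colour Agilent arrays, 2 per group. The authors' deposited scanner files hold the processed signal, a background-subtracted intensity, per spot; images were read with Agilent Feature Extraction 10.7 per the submitters' processing notes and 10.7.3.1 per the file headers, which name mm9. The deposited flags, coded as other values, say whether a spot is well above background. The authors' deposited value table holds log2 values that were centred per probe within each cell population, as a comparison with the scanner values showed, and served only as an alternative.

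Control spots and outlier spots were left out, spots of a probe were averaged, and log2 signals were taken minus each array's 75th percentile. A gene was read by its probe with the highest mean among those well above background on at least 2 of 8 arrays, which left 23249 features. Group means were fitted over all 8 arrays with limma 3.58.1 in R 4.3.3 (lmFit and eBayes, 4 residual degrees of freedom), with Benjamini-Hochberg adjustment over all features and calls at an adjusted p under 0.05. A second fit took each of 32352 probes by itself. The code was tested on simulated data. The members and lists were chosen with earlier results of these data known. Named genes were, by rule, the called members (the 6 largest and 2 smallest differences where over 12 were called), the 4 highest and 4 lowest per comparison, genes with blood disease or p53 roles, restricted paralogs with their partners, and genes whose probes differed in sign by over 0.5; from the other lists examples of the called genes are named. Alternatives changed scaling, background correction, filter, probe choice, variance model and the arrays used. Individual values of some genes are not reported here.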

Additional observations from a re-analysis of the deposited data

How the results depend on the processing

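No member was called within KSL cells, within Gr cells or for the difference of the transgene effects under any alternative run, and no called value changed sign. Among members called higher in KSL than in Gr cells, the counts were 8 in Vav-Etv2 and 54 in control mice. Of all features 10.4% and 16.2% were called higher. Median scaling gave 0 and 14 members, against 8.34% and 12% of all features. Quantile normalization gave 3 and 24, against 12.1% and 17.5%. They were 0 and 21 with no filter on dim probes, against 4.74% and 7.58%. Each probe by itself gave 22 and 109 of 179, against 10.5% and 15.7%. With only the arrays compared in the fit the counts were 1 and 18, against 8.08% and 12.7%. A filter for probes well above background on all 8 arrays gave 17 and 62, against 8.77% and 14.9%. An intensity trend in the variance gave 42 and 68, against 12.3% and 17.7%. With 1 array left out the counts ran between 0 and 31 in Vav-Etv2 and between 0 and 60 in control mice. The cause of these shifts was not tested. The medians with 1 array left out ran between -0.150 and -0.0531 in KSL cells, between -0.0953 and 0.483 in Gr cells, between -0.535 and 0.00528 for the difference of effects, and between 0.711 and 1.14 in Vav-Etv2 and between 0.941 and 1.43 in control mice for KSL minus Gr. A left-out array leaves an arm with 1 sample, assumed to vary like the other groups. Leaving out both Gr arrays numbered 1 or both numbered 2, chosen after seeing the data, gave 15 and 65 calls in Vav-Etv2 and 45 and 71 in control mice, with a control median of 1.43 without those numbered 2. Median scaling put the median of all features at -0.239 in Vav-Etv2 and -0.299 in control mice for KSL minus Gr, and its calls over all features in controls at 2792 higher and 4978 lower, against 3769 and 4300. The labels give no sign that equal replicate numbers mark a shared animal or batch. Deviations of same-numbered arrays correlated with r = 0.068 in KSL and 0.658 in Gr cells over all features. Over the members r was -0.276 in KSL and 0.811 in Gr cells. With the replicate block the counts were 24 in Vav-Etv2 and 62 in control mice, against 13.4% and 19% of all features. A replicate block within each cell type gave 58 and 69, against 23.5% and 25.1%. The arrays give no depth in counts, and signal over background limits Rpl3l, Rpl39l and Rpl10l.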
